A study of Homo sapiens with 27 samples.

Results

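Insertions of piggyBac-type transposons were examined in and around the olfactory receptor (OR) genes of human chromosome 11. Members were protein-coding genes of that chromosome whose RefSeq symbol has the form of OR, a family number, letters and a member number. The symbol rule gave 171 genes, of which 3 (OR8U8, OR8U9 and OR9G9) are listed only with scaffold coordinates and could not be placed. The remaining 168 genes were used, out of 19884 protein-coding genes in all, and each was given a window of its annotated bounds plus 10 kb on either side. Merged, the windows cover 3.46 Mb, or 2.57% of the span of chromosome 11 over which sites were listed, and 111 of the 168 windows overlap another member's window. Genes with overlapping windows share insertion sites and are not independent of each other.

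Olfactory receptors are G-protein-coupled receptors that bind odorants on the cilia of olfactory sensory neurons, and each such neuron expresses a single receptor gene. The genes are short, mostly have their coding sequence in a single exon, and lie in large clusters that are packaged in closed chromatin in most other tissues. The class I receptors, families OR51 to OR56, resemble those of fish and lie together in a single cluster on chromosome 11, whereas the class II families are spread over many chromosomes. Transposons of the piggyBac family insert at the sequence TTAA, and piggyBac insertions are known to favour open chromatin. No file measured expression, so that the OR genes are silent in these cells was not checked here.

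The cells were HCT116, an established human colorectal carcinoma line, transfected with self-reporting transposons, whose transcripts run out into the flanking genome so that an insertion can be read from RNA. All 9 groups were kept for 2 weeks in 3 µg/ml puromycin and hold 3 libraries each. In 4 groups a wild-type transposon was used: with piggyBac in WT_PB, with hyperactive piggyBac in WT_hyPB, with re-engineered piggyBac in WT_rePB, and in WT_rehyPB with the re-engineered hyperactive form. Short transposon was combined with wild-type piggyBac (short_PB) or hyperactive piggyBac (short_hyPB), symmetric transposon with re-engineered (sym_rePB) or re-engineered hyperactive piggyBac (sym_rehyPB), and a wild-type transposon was used with piggyBat (WT_PBat), a related transposase from a bat. The labels do not define "re-engineered", "short" or "symmetric", and do not say whether replicates came from separate transfections, so p-values measure the spread between these libraries, which may be technical.

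The 12 libraries of the 4 groups of wild-type transposon with piggyBac forms, called deep here, listed 336333 to 570362 distinct insertion sites each. The 15 others, called shallow, listed 2814 to 9212. Depth and transposon type therefore cannot be told apart. Replicates 1 and 2 of WT_hyPB shared 75.4% of their sites and replicates 1 and 3 of WT_PBat shared 52.5%, against 13.8% to 29.0% for the other pairs of deep replicates, so these pairs may not be independent. The main results that rest on them are also given with the linked libraries averaged or left out. Within the promoter windows for which sequence was at hand, 96.5% to 97.9% of the sites of each deep library began on TTAA, and 91.7% to 100% of those of each shallow library.

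Promoters are shown first, because they are the stretches of member genes for which the target sequence itself can be read. A promoter here is 250 bases before to 50 bases after the gene start in RefSeq on GRCh38.p14, and 135 of the 168 members had one. TTAA, which reads the same on both strands and cannot overlap itself, occurred in 80.7% of member promoters, against 37.0% of the promoters of other chromosome 11 genes and 39.5% of all 15843 coding promoters. Of the 12 member promoters in which a deep library had a site, 2 had sites from more than 1 group, and these are printed 5′ to 3′ on the gene's strand with the TTAA targets that were hit in capitals. OR4D9, on the plus strand at chr11:59511289-59511588, was hit 8 bases before the gene start (position -8) in WT_rePB replicates 1 and 2 and WT_rehyPB replicate 2. OR9I1, on the minus strand at chr11:58125481-58125780, was hit 61 bases before the start (-61) in WT_rePB replicate 2, and 36 bases after it in WT_PB replicate 1 and WT_rePB replicate 2.
OR4D9: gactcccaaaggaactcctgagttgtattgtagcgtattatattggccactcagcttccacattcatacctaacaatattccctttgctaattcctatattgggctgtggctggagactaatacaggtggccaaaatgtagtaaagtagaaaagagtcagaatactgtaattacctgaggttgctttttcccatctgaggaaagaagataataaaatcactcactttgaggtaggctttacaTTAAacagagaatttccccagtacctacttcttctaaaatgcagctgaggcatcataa
OR9I1: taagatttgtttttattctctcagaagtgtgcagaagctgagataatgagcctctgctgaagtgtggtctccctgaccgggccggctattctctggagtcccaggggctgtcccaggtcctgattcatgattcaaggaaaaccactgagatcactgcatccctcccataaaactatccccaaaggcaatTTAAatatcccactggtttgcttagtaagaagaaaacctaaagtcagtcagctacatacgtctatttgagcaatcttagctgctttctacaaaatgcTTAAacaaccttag
OR4D9 holds a single TTAA in this window, so that its only target was used in 3 libraries. OR9I1 holds 2, and both were used.

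Targets in member promoters were plentiful, and few of them had a listed insertion. Sites were read from transposon RNA, so an insertion without such RNA would not be listed. How many were missed in this way, in promoters or in the windows below, was not tested. The members' promoters hold 270 TTAA sites, 2 per promoter, and 13 of them (4.81%) carried an insertion in any of the 12 deep libraries. In the promoters of other chromosome 11 coding genes 36.4% of TTAA sites did, and in all coding promoters 35.7%. In WT_PB the members were hit at 4.94 ± 2.14 per 1000 TTAA (SD, n = 3), other chromosome 11 genes at 145 ± 8.86 and all coding genes at 134 ± 7.11. No member TTAA was hit in any WT_hyPB library, and WT_rePB hit 3 in each of its 3 libraries. No short, symmetric or piggyBat library had a site in a member promoter. Over the 9 group means, the difference of member promoters from other chromosome 11 genes was -57.2 hits per 1000 TTAA (two-sided exact sign-flip permutation p = 0.00391, the smallest that 9 groups can give), a comparison chosen after the files were seen. In the shallow groups, where members had 0 hits, other chromosome 11 genes were hit at only 1.29 to 9.67 per 1000. With members at 0, the difference in those groups could not be positive, so they add little but a sign to this p. Over the 4 deep groups alone the difference was -121, and 4 groups are too few for an exact test to pass 0.05. OR genes of other chromosomes were hit at 6.15 ± 6.15 per 1000 TTAA in WT_PB and 8.21 ± 6.41 in WT_rePB, where the members had 4.94 and 11.1. They were hit at 14.4 ± 4.70 in WT_hyPB and 14.4 ± 1.78 in WT_rehyPB, above every library of the members, which had 0 and 3.70 ± 3.70. Over the 9 group means the difference of the members from them was -2.59 (exact permutation p = 0.375).

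**Figure D1:**
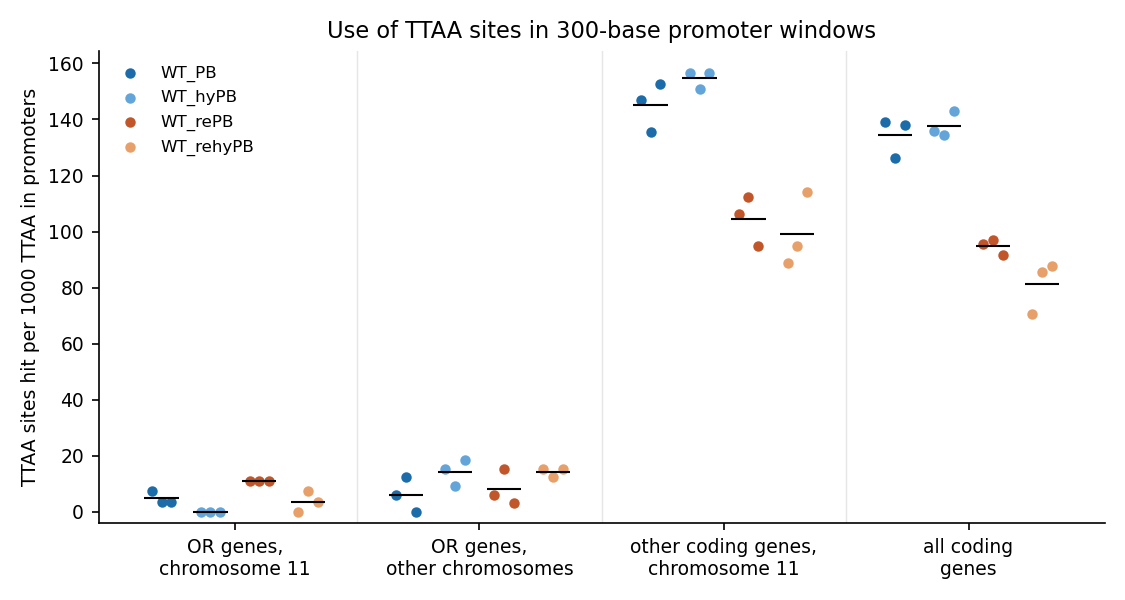
TTAA sites in promoter windows that carried an insertion, per 1000 TTAA (vertical axis), for 4 sets of genes in the 12 deep libraries; points are libraries and bars are means of 3. Member promoters lie between 0 and 11.1 in every library, while other coding genes of chromosome 11 lie between 89.0 and 157.

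Away from promoters too, the OR windows held fewer sites than the chromosome around them. Counted per Mb and per 10000 sites of the library, WT_PB had 1.80 ± 0.11 sites in OR windows (SD, n = 3) and 3.05 ± 0.03 in the rest of chromosome 11. The OR density was the lower of the pair in all 12 deep libraries and in 26 of 27 libraries, the exception being a piggyBat library. Over the 9 group means the difference averaged -1.88 (two-sided exact sign-flip permutation p = 0.00781, adjusted p = 0.0273 over 7 tests), with 8 of 9 groups lower and WT_PBat higher, at 3.78 against 3.65. Per gene, in sites per 10000 per 100 kb of window over the deep libraries, the members had a median of 0.0783. That median was 0.113 for OR genes of other chromosomes, 0.386 for other coding genes of chromosome 11 and 0.404 for all coding genes. The 15 genes of olfactory signal transduction and neuron differentiation (such as OMP, the olfactory marker protein, and GNAL, the olfactory G-protein alpha subunit) had 0.341. Housekeeping genes of chromosome 11, 15 in number, had 0.857. Among genes that lie within the OR cluster of the short arm, the 7 listed TRIM genes had 0.410 and the 5 globin genes 0.288.

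The OR genes fell into 7 clusters, separated by over 1 Mb, and these differed widely. The cluster from OR52B4 to OR10A3 (chr11:4367263-7941708) holds 67 genes, among them all 55 class I genes. It carried 128 to 193 sites in each deep library, a density of 2.72 ± 0.30 (SD, n = 12 libraries of 4 groups). The cluster from OR4C46 to OR5AK2 (chr11:54603069-56989843) holds 48 genes, all of class II, and carried 0 to 4 sites per deep library, a density of 0.0393 ± 0.0307. These ranges of sites do not overlap, although the windows of the second cluster cover 0.940 Mb and those of the first 1.37 Mb. Of the 111 TTAA sites in the promoters of the OR4C46 cluster, 0 were hit in any library.

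The clusters between these extremes were intermediate. OR9Q1 to OR10V1 (21 genes) had a density of 1.72 ± 0.28 and OR6X1 to OR8A1 (22 genes), near the long-arm end, 1.88 ± 0.31. The small clusters OR4B1 to OR4A47 (7 genes) and OR4C13 to OR4C12 (2 genes) had 0.432 ± 0.307 and 0.0840 ± 0.198. OR2AT4, the only member without an OR neighbour within 1 Mb, had 5 to 13 sites per deep library in a single window, a density of 5.80 ± 1.40, and was the only cluster above the rest of the chromosome in all 4 deep groups. The sequence between the windows of a cluster had 0.0595 ± 0.0266 sites per Mb per 10000 in the OR4C46 cluster, 2.34 ± 0.17 in the OR52B4 cluster and 3.29 ± 0.25 in the OR9Q1 cluster. It was thus nearly as empty as the windows in the OR4C46 cluster, and denser than the windows in the OR9Q1 cluster. How many reads can be placed uniquely among OR copies is not given by the files, and its part in these densities was not tested.

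**Figure D2:**
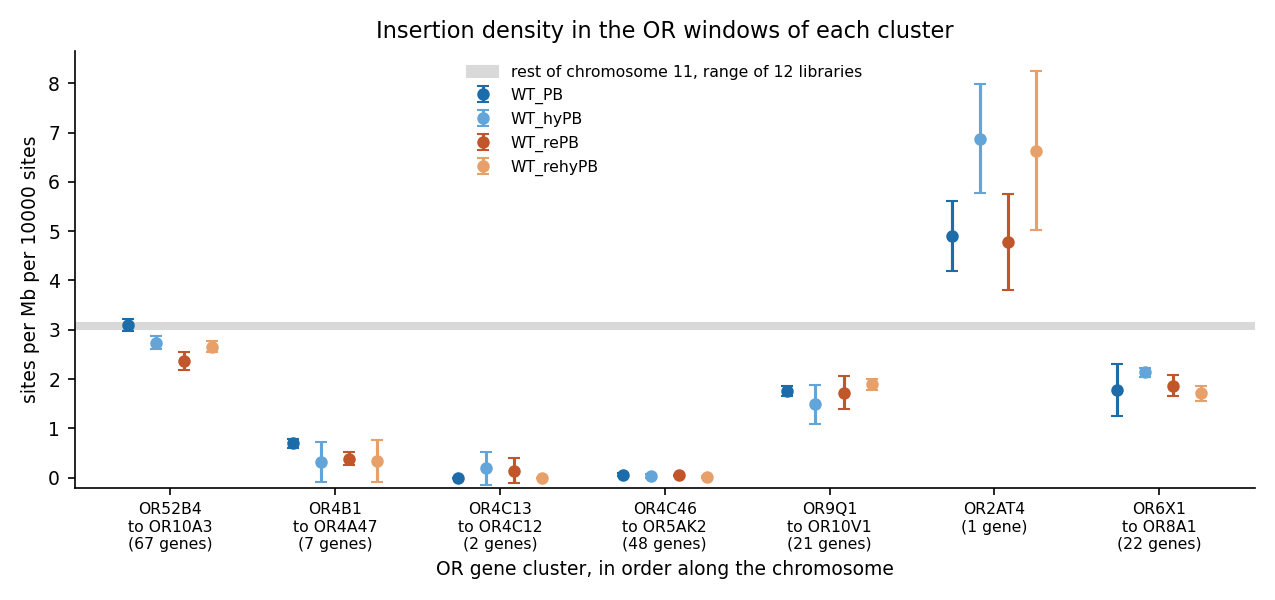
Insertion sites per Mb of OR window per 10000 sites of the library (vertical axis) for the 7 OR clusters in order along the chromosome, as mean and SD of 3 libraries in each deep group; the grey band is the range of the rest of chromosome 11. The OR4C46 cluster lies near 0 in every group and OR2AT4 lies above the band.

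Members without any site were all of class II. All 55 class I members had a site in some deep library, with a median of 0.0373 sites per 10000 per window, whereas 37 of the 113 class II members had none in any of the 27 libraries, and their median was 0.00743. Of those 37, 34 lie in the OR4C46 cluster and 3 (OR5P2, OR10A3 and OR10A6) at the edge of the OR52B4 cluster. Family OR5, with 34 genes, had 18 without a site, and family OR8, with 22 genes, had 9. At the other end, 33 members had a site in every deep library and 98 in some of them. Every class I gene lies in the OR52B4 cluster, and so do 12 class II genes, whose median was 0.0326 against 0.0373 for the class I genes. Of these 12, 3 had no site and 3 had a site in every deep library, against 0 and 18 of the 55 class I genes.

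Density also varied with distance from other genes, which went together with cluster. Of the window sequence, 21.5% lay within 10 kb of another coding gene in the OR52B4 cluster and 0% in the OR4C46 cluster. No distances were compared within a cluster, so distance and cluster cannot be told apart here. Stretches of OR window 10 to 50 kb from the nearest other coding gene had 3.21 ± 0.15 sites per Mb per 10000 in WT_PB (SD, n = 3), those 100 to 200 kb away 1.45 ± 0.12, and those over 200 kb away 0.432 ± 0.126. Within 10 kb of another gene the value was 2.46 ± 0.54. Without the window of OR51B5, described below, the WT_PB values were 2.38 ± 0.33 at 10 to 50 kb and 1.01 ± 0.17 at 100 to 200 kb. They were 0.432 ± 0.126 over 200 kb and 1.58 ± 0.81 within 10 kb. The planned comparison of OR windows within 10 kb of another gene against the remainder gave a difference of 0.19 over the 9 groups (exact sign-flip permutation p = 0.684, adjusted p = 0.797). In the 4 deep groups alone it was 0.80, higher near other genes in each, 2.46 against 1.74 in WT_PB. With windows of 50 kb it was 0.97 over the 9 groups (exact permutation p = 0.0156, adjusted p = 0.0547). Annotated gene bodies, which make up the smaller part of the windows, had 2.84 ± 0.35 sites per Mb per 10000 in WT_PB against 1.37 ± 0.06 in the flanks. These bodies include the 165335 bases annotated to OR51B5, a dense stretch that also holds other members. Bodies without it were not counted apart, so the difference cannot be read as one of OR gene bodies in general. In gene bodies with a known strand, 51.9% ± 5.51 of WT_PB peaks ran in the sense of the gene.

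The 10 members with the most sites were OR51B5, OR51I2, OR52D1, OR51I1, OR51M1, OR2AT4, OR4D9, OR10V1, OR51B2 and OR52H1, of which 7 are class I. OR51B5 is an odorant receptor gene whose annotation spans 165335 bases (chr11:5340318-5505652), whereas the median member spans 1103, and 6 other members (OR51B6, OR51M1, OR51Q1, OR51I1, OR51I2 and OR52D1) lie inside its bounds. Its window therefore takes in their sites. The 3 WT_PB libraries had 88, 70 and 97 sites there, and WT_hyPB had 86, 71 and 76. The counts were 84, 76 and 68 for WT_rePB, and 65, 58 and 76 for WT_rehyPB. This window makes up 5.35% of the OR windows and held 24.5% to 36.3% of the OR sites of each deep library. Its density, 9.55 ± 1.70 sites per Mb per 10000 over the 12 deep libraries, lay above the rest of the chromosome in each, at 6.76 to 12.4. The windows of its cluster outside it had 1.65 ± 0.13.

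Inside that window OR51I2 had 17, 14 and 16 sites in WT_PB and 9, 15 and 12 in the deeper WT_rePB. Per 10000 sites this was 0.391 ± 0.012 and 0.216 ± 0.050. Its re-engineering effect of -0.46 on the log2 scale did not pass the limma test (adjusted p = 0.17). OR52D1 had 7, 11 and 12 sites in WT_PB, and OR51I1 had 13, 4 and 11. Outside it, OR2AT4 had 8, 5 and 8 sites in WT_PB and 9, 9 and 13 in WT_hyPB. OR10V1, in the OR9Q1 cluster, had 8, 7 and 11 sites in WT_PB and 10, 11 and 12 in WT_hyPB. In WT_rePB it had 3, 7 and 8, which overlap WT_PB, and in WT_rehyPB 6, 5 and 5. OR4D9 had 6, 8 and 8 sites in WT_PB and 14, 12 and 16 in the deeper WT_rePB, or 0.186 ± 0.047 and 0.253 ± 0.042 per 10000, and its re-engineering effect of 0.55 on the log2 scale did not pass the limma test (adjusted p = 0.244).

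WT_PBat was the only group whose mean OR share lay above that of WT_PB, and nearly all of its OR sites lay at OR51B5. The 3 WT_PBat libraries had 12, 7 and 11 OR sites, or 16.7, 10.1 and 12.4 per 10000 sites, against 6.54, 5.82 and 6.34 in WT_PB. The groups do not overlap, and the difference of 6.85 per 10000 had exact permutation p = 0.1, the smallest that 3 against 3 libraries can give (adjusted p = 0.14). With the linked replicates averaged it was 6.11. Of these 30 sites, 29 lay in the OR51B5 window (12, 6 and 11 per library), and the other 1 lay in the window of OR51B4. Per 10000 sites the OR51B5 window had 16.7, 8.69 and 12.4 in WT_PBat and 2.01, 2.02 and 2.30 in WT_PB. Pooled, its share was 5.97 times that of WT_PB, 5.09 times without replicate 1 and 6.04 times without replicate 3. Without that window the difference turned round: WT_PBat had 1 site against 500 in WT_PB, a ratio of 0.105, and the difference of group means was -3.64 per 10000. The window was singled out after its piggyBat sites were seen. These ratios, and the difference without the window, are therefore descriptions with no test.

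**Figure D3:**
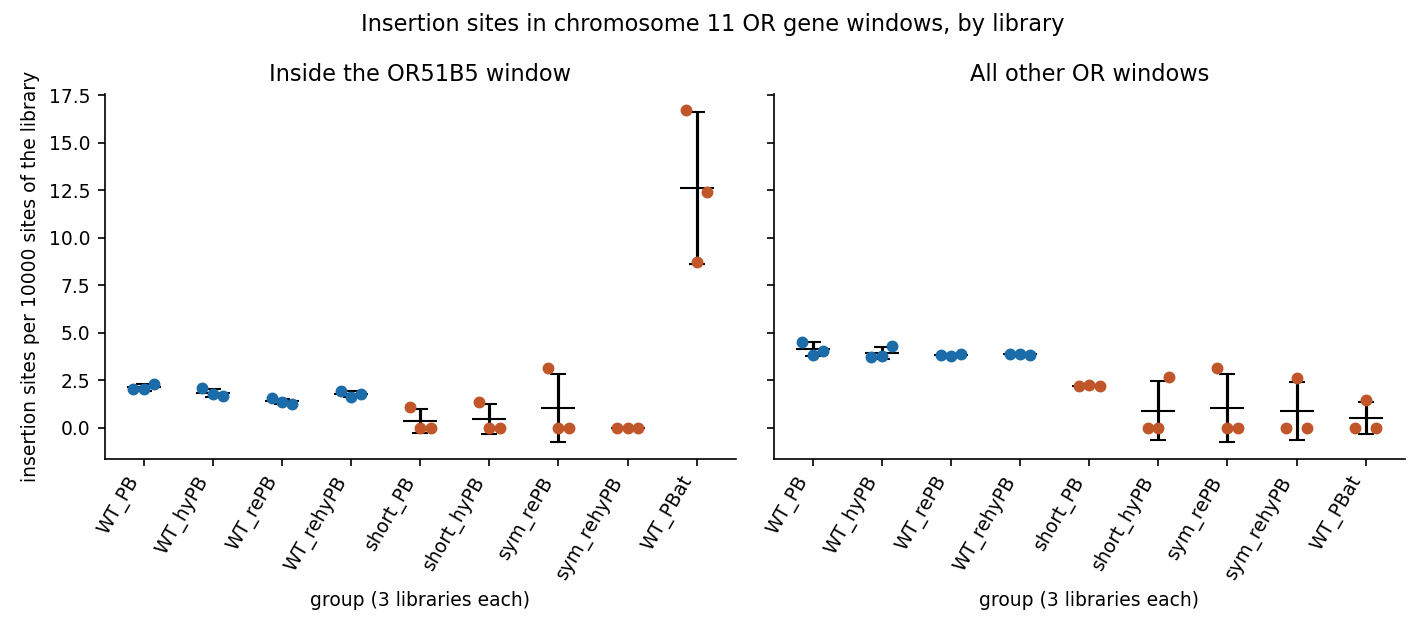
Insertion sites per 10000 sites of the library (vertical axis) inside the OR51B5 window (left) and in all other OR windows (right), for 9 groups; points are libraries, bars are means and whiskers SD of 3. The piggyBat libraries lie at 8.69 to 16.7 on the left, above every other library, and at 0 to 1.45 on the right.

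Since WT_PB was much deeper, WT_PBat was also set against short_PB, whose libraries have a similar number of sites, a comparison chosen after the values were seen. short_PB had 1, 0 and 0 sites in the OR51B5 window, and the pooled ratio was 34.7. OR51B5 was higher in WT_PBat by 4.03 on the log2 scale in a limma fit, with a median of 0.67 over all windows tested, and by 1.71 with only peaks of height 10 or more. The ratio and these log2 values are descriptions with no test, because the window was picked for its piggyBat sites. It also passed the filter on low values through WT_PBat alone. The linked WT_PBat replicates 1 and 3 both had more sites there than replicate 2.

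The piggyBat sites were clustered within the window and mostly faced one way. Replicate 1 had 5 sites, replicate 2 had 1 and replicate 3 had 3 between 130 and 140 kb from the window start, in the flank of OR51I2. Each of the 3 libraries had 2 sites between 150 and 160 kb, around OR52D1, and 1 between 160 and 170 kb. Of the 29 peaks 25 lay on the minus strand, 12 of 12, 4 of 6 and 9 of 11 by library, so 13 of 17 without replicate 1 and 16 of 18 without replicate 3. In the deep libraries 42.5% to 62.4% of OR51B5 peaks did, and 48.8% to 55.8% of all chromosome 11 peaks of the piggyBat libraries. The 30 sites fall on 21 positions, of which 13 were also listed in a deep library and 7 in more than 1 piggyBat library. Without replicate 1 or replicate 3, which are linked, 3 or 2 positions were shared. The position chr11:5488755-5488758, in the windows of OR51B5 and OR52D1, was listed in all 3 piggyBat libraries and in 7 deep ones. The strand of OR51B5 was not in the tables used, so the orientation of these insertions relative to it is not stated.

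**Figure D4:**
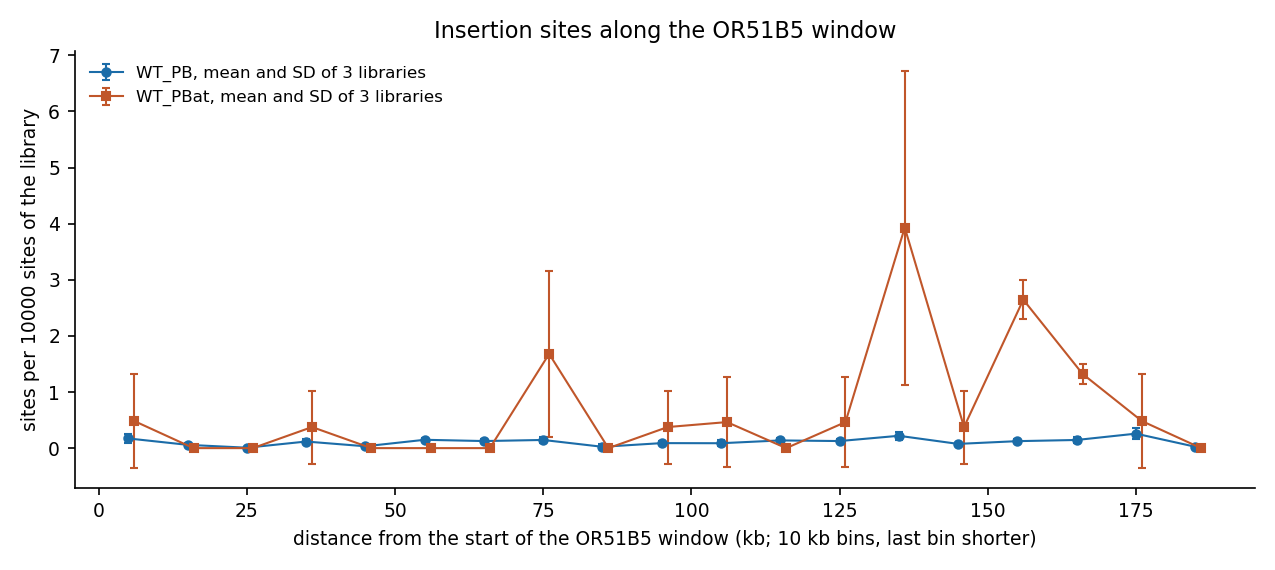
Insertion sites per 10000 sites of the library (vertical axis) in 10 kb bins along the OR51B5 window (distance from its start in kb), as mean and SD of 3 WT_PB and 3 WT_PBat libraries. The WT_PBat sites are highest between 130 and 140 kb and between 150 and 160 kb, with few sites between, while WT_PB sites are spread over the whole window.

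Among the deep groups the transposase form made a small difference to the OR share. Hyperactivity did not pass the test: the mean change over both pairs was -0.03 sites per 10000 (two-sided exact permutation p = 0.875, adjusted p = 0.875). With wild-type transposase it was 5.74 ± 0.24 in WT_hyPB against 6.23 ± 0.37 in WT_PB, and with the re-engineered form 5.62 ± 0.20 in WT_rehyPB against 5.19 ± 0.15 in WT_rePB. Re-engineering lowered the OR share by 0.58 per 10000 on average (exact permutation p = 0.025, adjusted p = 0.0438). The change was -1.04 from WT_PB to WT_rePB, whose libraries do not overlap, and -0.12 from WT_hyPB to WT_rehyPB, whose libraries do. When 1 library was left out, the change ran from -0.69 to -0.51, and adjusted p stayed under 0.05 without WT_PB replicate 2, WT_hyPB replicate 2 or WT_rehyPB replicate 1 but not without any of the other 9 (highest 0.0963). The changes of both pairs differed by -0.92 (exact permutation p = 0.015, adjusted p = 0.03 over 4 such tests). Those tests count this difference both for hyperactivity and for re-engineering, which lowers the adjusted p. With the linked WT_hyPB libraries averaged it was -0.86 (exact permutation p = 0.03, not adjusted).

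Most of the re-engineering difference lay at OR51B5. Its window held 1.37 ± 0.14 sites per 10000 in WT_rePB against 2.11 ± 0.17 in WT_PB, and 1.77 ± 0.17 in WT_rehyPB against 1.83 ± 0.22 in WT_hyPB. Without it the change was -0.18 (adjusted p = 0.399), and with only peaks of height 10 or more it was -0.45 (adjusted p = 0.201). In limma over 18013 gene windows, 76 of the 168 members had the required mean of 1 site per library and were tested. Re-engineering changed 2 of them, both lower: OR51B5 by -0.34 ± 0.08 on the log2 scale (SE, adjusted p = 0.0172) and OR10V1 by -0.92 ± 0.24 (adjusted p = 0.034). Over all windows 2.43% were called, 1.55% as lower and 0.872% as higher, so the members' share was near the background. The members' median was -0.17 and that of all windows -0.01. With linked libraries averaged, limma called 0 members (5 had unadjusted p under 0.05). It called 0 without WT_PB replicate 3 or WT_hyPB replicate 1, and 1 without WT_PB replicate 2, WT_hyPB replicate 2 or 3, or WT_rePB replicate 1 or 3. Hyperactivity changed 0 of the 76 in limma (4 at unadjusted p under 0.05; 0.55% of all windows called, 0.228% as higher and 0.322% as lower), with a median of 0.05 against 0.06.

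Short and symmetric transposons gave very few OR sites. By replicate, short_PB had 3, 2 and 2, short_hyPB 1, 0 and 2, sym_rePB 2, 0 and 0, and sym_rehyPB 0, 1 and 0. In all, 13 OR sites were listed in 12 libraries, 3 of them in the OR51B5 window, and 7 of the 12 libraries had any. A count of 0 allows a share of up to 4.35 per 10000 in short_hyPB replicate 2, below the 5.08 to 6.54 of the deep libraries, and of up to 6.56 to 10.7 in the symmetric libraries, which takes in those values. Per 10000 sites, short_PB had 2.55 ± 0.62 and short_hyPB 1.34 ± 1.33 (SD, n = 3), lower than the same transposase with wild-type transposon by 4.05 on average (exact permutation p = 0.005, the lowest this design allows, adjusted p = 0.0273). sym_rePB had 2.08 ± 3.59 and sym_rehyPB 0.877 ± 1.52, a difference of -3.93 (exact permutation p = 0.02, adjusted p = 0.0438). Its adjusted p was 0.0613 to 0.0817 without any 1 of the WT_rePB or WT_rehyPB libraries, or without sym_rePB replicate 2 or 3. The pooled ratio was 0.407 for short_PB over WT_PB (95% exact interval 0.163 to 0.843), 0.239 for short_hyPB over WT_hyPB (0.0491 to 0.701), 0.42 for sym_rePB over WT_rePB (0.0508 to 1.52) and 0.145 for sym_rehyPB over WT_rehyPB (0.00366 to 0.809). OR4D9 was the only member outside the OR51B5 window with a site in 3 or more of the shallow libraries, in short_PB replicate 3, short_hyPB replicate 3 and sym_rePB replicate 1.

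The OR share was lower among the tallest peaks. In WT_PB the share of OR sites was 7.67 ± 0.34 per 10000 among peaks of height 5 to 6 and 3.05 ± 0.63 among those of 50 and above, and it was lower in the tallest class in each of the 4 deep groups. The OR51B5 window and the other windows both showed this. The short_PB libraries, of all heights, had 2.55 ± 0.62. Matching the libraries in depth left too few sites for a test. With the 2814 tallest peaks of each library, 11 of the 12 deep libraries had 0 OR sites. With the file totals, taken as reads, thinned to the smallest, the deep libraries kept 115 to 522 sites and the short ones 2538 to 6594, and again 11 of 12 deep libraries had 0. Whether the short and symmetric differences hold at matched depth was thus not tested.

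**Figure D5:**
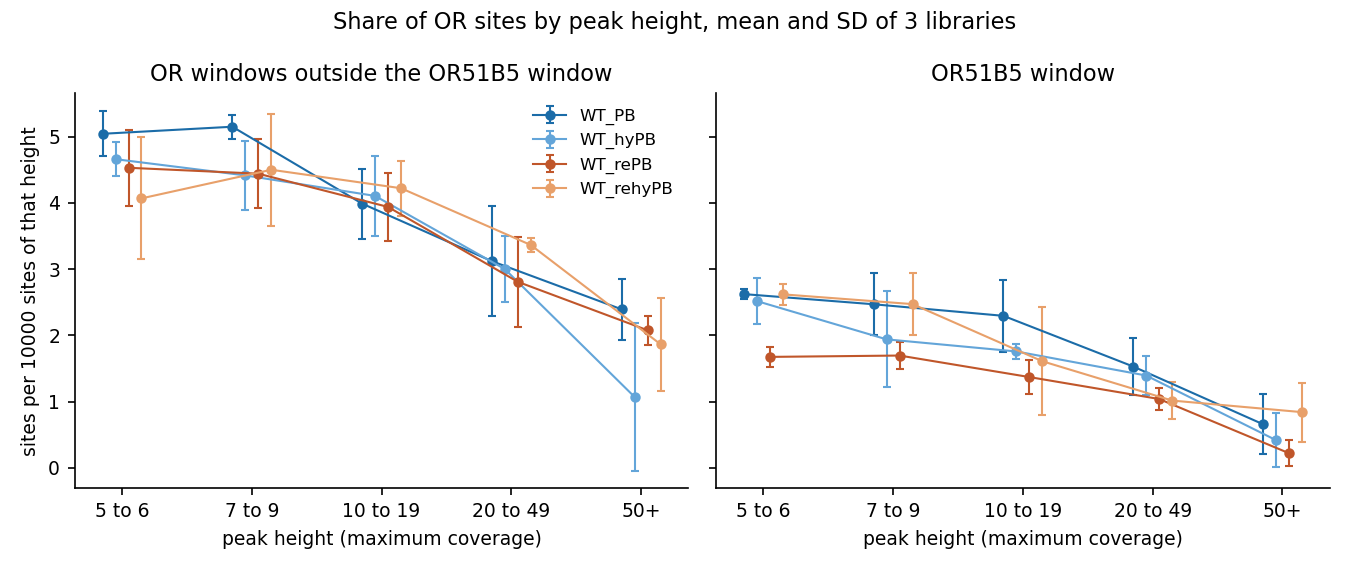
OR sites per 10000 sites of the same peak height (vertical axis) by height class, outside the OR51B5 window (left) and inside it (right), as mean and SD of 3 libraries in the 4 deep groups. In WT_PB the left panel runs from 5.04 at height 5 to 6 down to 2.39 at height 50 and above, and the right panel from 2.62 to 0.66.

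OR positions were seldom hit again. The 27 libraries listed 1928 distinct OR positions, of which 1366 were in 1 library, 44 in 6 or more deep libraries and 0 in all 12. In WT_PB, 19.9% to 25.2% of OR sites recurred in another replicate, against 30.3% to 34.0% of the sites elsewhere, and the OR share was the lower in every deep library. The most recurrent position, chr11:5506210-5506213 in the flank of OR51B5, was listed in 11 of the 12 deep libraries. In the deep libraries the median peak height in OR windows was 9 to 11, and it was below that of the other sites of the same library in each.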

How the data were processed

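Insertion sites were measured in 27 HCT116 libraries (9 groups of 3, from the sample labels). The authors deposited 1 peak list per library, with no header, whose coverage columns, a sum and a maximum (peak height), are signal not scaled to depth. Per the submitters' processing notes, cutadapt 3.4 and HISAT2 2.2.1.0 were used, with GRCh38.p5. No listed height is below 5. The constant in the last column, 142666 to 12051190 per file, was taken as reads for thinning, which no source states.

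A site was the 5′ edge of a peak, moved 3 bases on the minus strand, counted once per library and scaled per 10000 sites. Genes and promoters came from RefSeq GRCh38.p14. Library-level effects used exact permutation tests within pairs of groups, and OR against other sequence used exact sign-flip tests over 9 group means, with Benjamini-Hochberg adjustment over 7 tests. Gene windows were tested with limma 3.58.1 in R 4.3.3 on log2((sites + 0.5) per 10000), for a mean of at least 1 site, adjusted over all windows at 0.05. On simulated data for the hyperactive comparison, 82.5% of 200 windows changed 2-fold were recovered. The changed windows were drawn from those with far more sites than most members, and the noise was Poisson only. Of the 76 members tested, 14 reached a mean of 5 sites, so this rate does not cover most members. Counts came from Python 3.11.15 with scipy for intervals. PCR reads lack molecular identifiers, so intervals cover counting error only. In the deep libraries, correlations of same-numbered deviations were -0.02 to 0.02. The shallow libraries were not examined, so pairing by replicate number was not excluded.

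Named members were the 10 with most sites, those called by limma and those with sites in 3 or more shallow libraries; others were named after their values were seen. Members and lists were chosen with earlier results of these data known. Alternatives changed the height minimum, window, scaling, filter, prior, depth, linked libraries and replicates.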

Additional observations from a re-analysis of the deposited data

Results flagged for a closer look

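The effect of hyperactivity on the OR share differed between wild-type and re-engineered transposase. It was -0.49 sites per 10000 with the wild-type form and 0.43 with the re-engineered form, a difference of -0.9185 (two-sided exact permutation with the common effect taken out, p = 0.015, adjusted p = 0.03 over 4 tests). The same 4 groups read as the effect of re-engineering gave -1.04 without and -0.12 with the hyperactive change, and this difference is the same quantity, -0.9185. The 4 tests count it both ways, which lowers the adjusted p. WT_hyPB replicates 1 and 2 enter this comparison and share 75.4% of their sites. With both averaged the difference was -0.86, without replicate 1 it was -0.94 and without replicate 2 it was -0.79. These alternatives (exact permutation p = 0.03, 0.03 and 0.035, none adjusted) were chosen after the values were seen.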

How the results depend on the processing

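The OR density below that of the rest of chromosome 11 kept its direction in 11 of 11 alternatives (-2.78 to -1.44). Its adjusted p was above 0.05 with thinned reads (-2.03) and with only 4 groups (-1.44, too few for p under 0.05). The re-engineering effect was the least stable: adjusted p was above 0.05 with height 10 or more (-0.45), thinning (-6.22), gene bounds only (-0.28), 50 kb windows (-1.03), strands counted apart (-0.51), without the OR51B5 window (-0.18) and with the 3 unplaced genes added (-0.53), and the sign turned with equal numbers of tallest peaks (0.592). The short effect lost its call with thinning (-4.62) and 50 kb windows (-2.69) and turned to 1.18 with the tallest peaks. The symmetric effect lost it with 50 kb windows (-4.32) and turned with thinning (4.28) and the tallest peaks (1.18). Under thinning and under tallest peaks 11 of the 12 deep libraries had 0 OR sites and 1 had 1, so these values test nothing. The hyperactive effect turned to 6.22 with thinning and 0.0228 with gene bounds, and the difference between windows near and away from other genes to -0.11 with height 10 or more and -0.26 with thinning. The piggyBat difference turned to -3.64 without the OR51B5 window, which was singled out for its piggyBat sites. The cause of these changes was not tested.

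Same-numbered deep libraries showed no shared deviations, but pairing by replicate number was not examined in the shallow libraries. With the replicate block the re-engineering (-0.58), short (-4.05) and symmetric (-3.93) effects all had adjusted p = 0.109, and in limma the block gave 2 member calls for re-engineering. Leaving out 1 library gave -0.14 to 0.0436 for hyperactivity, -0.69 to -0.51 for re-engineering (highest adjusted p = 0.0963), -4.38 to -3.71 for short, -4.97 to -3.41 for symmetric (highest adjusted p = 0.0817), 5.04 to 8.32 for piggyBat, 0 to 2 called members for re-engineering and 3.76 to 4.55 for OR51B5. Leaving out 1 replicate number in every group gave -1.99 to -1.80 for OR density, -0.48 to 0.56 for near against away and -58.6 to -55.9 for promoters. Median scaling called 1 member for re-engineering and averaging the linked libraries 0. Promoters gave -121 over 4 groups and -2.59 against OR genes elsewhere.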
